A study of Mus musculus with 19 samples.

Results

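CD8 T lymphocytes that had met their antigen for 72 h were compared with naive CD8 T lymphocytes, using 8 of the 19 Affymetrix mouse gene arrays of the series. The members are the arrays themselves, chosen by their labels: 4 effector arrays of activated cells without Stat5ca, numbered 1 to 4 by the submitters, and 4 naive arrays, numbered 33 to 36. Both groups came from TCRP1A transgenic, Rag-1-/- mice of the B10.D2 background, and both were labelled as purified CD8 T lymphocytes. The effector cells had been activated with their cognate antigen for 72 h, and naive cells were labelled peripheral, with no organ, age or sex given. The rest of the series held cells with an active Stat5 and cells recovered after transfer into congenic hosts, and 8 of those arrays entered only the estimate of the spread. Each array was made from 0.125 µg of total RNA with an integrity number of 8 to 10.

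TCRP1A is a receptor for a peptide of the P1A tumour antigen. Mice without Rag-1 cannot rearrange receptors of their own, so that all their T cells carry the transgenic one and mature B cells are lacking. A naive CD8 T cell circulates in a quiescent state, held by factors such as Klf2 and supplied by interleukin-7. Antigen makes it enlarge, switch its metabolism to support growth, divide many times and acquire the granule proteases, receptors and cytokines of a killer cell. Genes of these programmes were followed here in lists, each described by how many members rose or fell.

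A value is the deposited log2 signal of a gene's brightest probe set, so that a difference of 1 is a 2-fold change. A change is the mean of the effector arrays minus that of the naive arrays with its SE from limma, and a gene is said to rise or fall where its Benjamini-Hochberg adjusted p over all 19938 genes was under 0.05. Signals of olfactory and vomeronasal receptor genes, which T cells do not use, served as background, with a 95th percentile of 7.32. Values under 7.32 are given as measured, and for the genes most affected the change counted from 7.32 is added. Nothing in the labels ties each array to an animal or culture of its own, and p-values therefore describe array-to-array spread, which may be partly technical. In bulk RNA, fewer cells of a type and less RNA per cell cannot be told apart.

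The cell type labels were checked first. All 11 T-cell markers lay above background in all 8 arrays. Cd8a, the CD8 alpha chain, read 13.27, 12.97, 13.24 and 12.97 in naive arrays 33, 34, 35 and 36 and 12.96, 13.18, 13.19 and 12.997 in effector arrays 1, 2, 3 and 4. Its change was −0.03 ± 0.09 and was not called. B-cell markers averaged under background in every array but naive array 36, where they lay at it, and CD4 and regulatory T-cell markers averaged 7.65 to 7.98.

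Naive arrays 34 and 36 stood apart from naive arrays 33 and 35. Their 23 myeloid markers, all above background, averaged 11.62 and 11.47, against 7.61 and 8.38 in naive arrays 33 and 35, while the effector arrays averaged 7.83 to 8.52. Their 13 neutrophil markers averaged 12.29 and 12.17 (7.09 and 7.65 in the other naive arrays), their dendritic markers 10.22 and 10.10 (8.55 and 9.30) and their NK-cell markers 9.34 and 9.09 (7.50 and 8.41). S100a8, a calcium-binding protein of neutrophils, read 6.60, 13.59, 7.001 and 13.09 in naive arrays 33 to 36 and 8.28, 7.61, 7.63 and 8.11 in the effector arrays. Between the mean of naive arrays 34 and 36 and that of 33 and 35, 744 genes differed by more than 1 on the log2 scale, 724 of them higher in 34 and 36. Results that rest on these arrays are therefore also given without them.

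**Figure D1:**
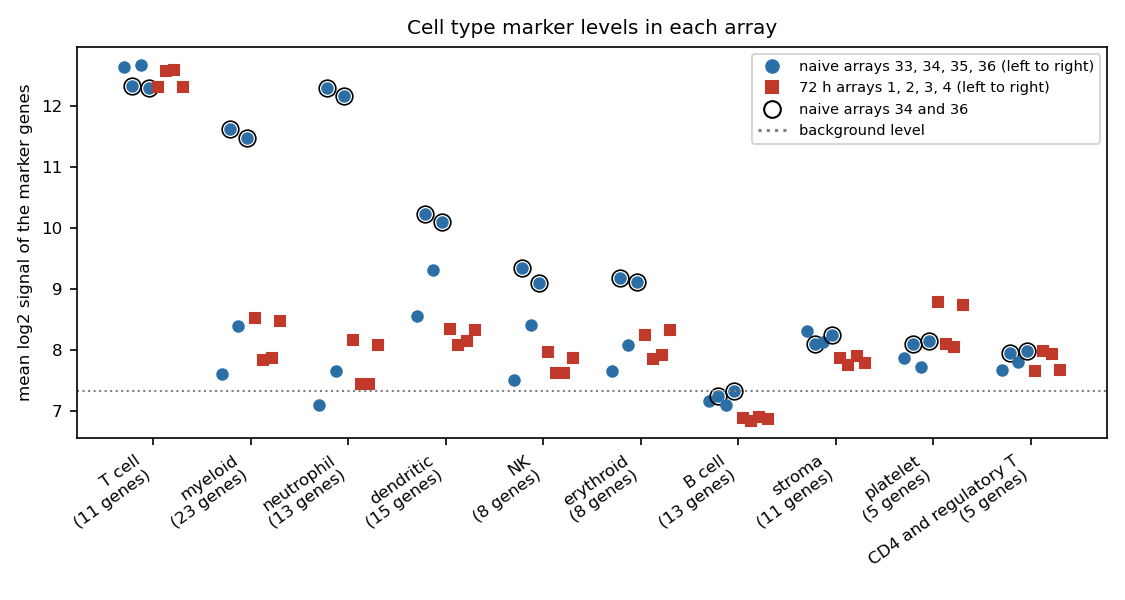
Mean log2 signal of the marker genes of 10 cell types in each of the 8 arrays, naive as blue circles and effector as red squares, with the background of 7.32 dotted. Naive arrays 34 and 36, ringed in black, lie above all other arrays for myeloid, neutrophil, dendritic, NK-cell and erythroid markers, while T-cell markers lie between 12.29 and 12.67 in every array.

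The arrays also fell into close pairs. Effector arrays 1 and 4 differed from each other with an SD of 0.136 over all genes and by more than 1 at 2 genes, and effector arrays 2 and 3 with an SD of 0.194 and at 3 genes. Between these pairs the SD was 0.297 to 0.328 and 207 to 225 genes differed by more than 1. Naive arrays 34 and 36 differed with an SD of 0.189 and at 9 genes, whereas naive arrays 33 and 35 differed with an SD of 0.333 and at 214 genes. Xist, the RNA of the inactive X chromosome, read 6.18, 12.92, 12.84 and 6.35 in effector arrays 1 to 4 and 12.82, 12.82, 12.65 and 12.79 in the naive arrays. The Y-linked gene Eif2s3y read 10.62, 5.16, 4.93 and 10.77 in the effector arrays, high in the pair with little Xist, and 5.08, 4.75, 7.87 and 4.96 in the naive arrays, with array 35 between the others. Because the arrays of a close pair differed so little, counts are also given with arrays 1 and 4, 2 and 3, and 34 and 36 averaged to 1 sample each, an alternative chosen after the data were seen.

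**Figure D2:**
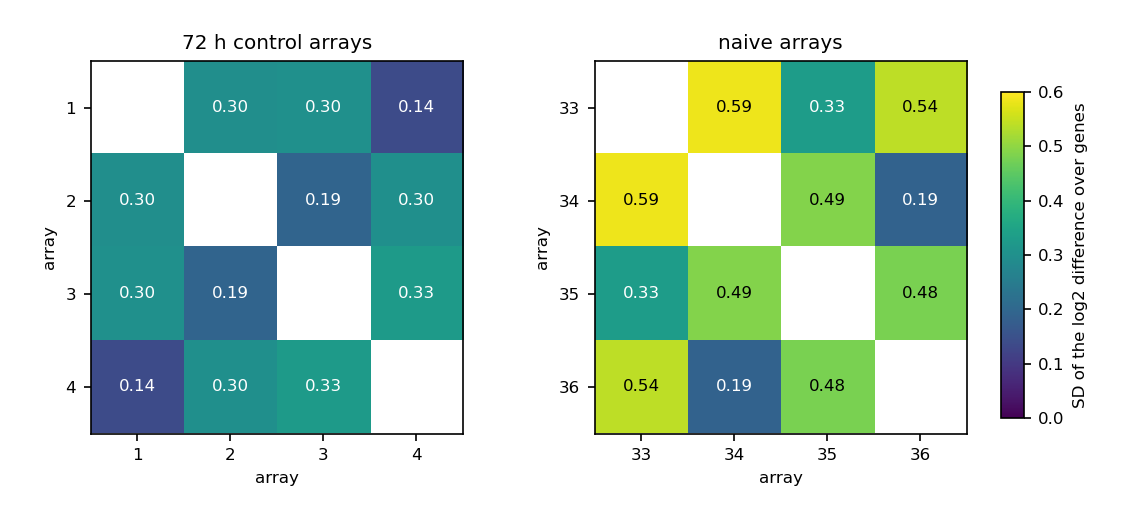
SD over all genes of the difference in log2 signal between each pair of arrays of a group, effector arrays on the left and naive arrays on the right. Effector arrays 1 and 4 (0.14), effector arrays 2 and 3 (0.19) and naive arrays 34 and 36 (0.19) are the close pairs, and naive arrays 33 and 34 (0.59) are the farthest apart.

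Of the 19938 genes tested, 4378 (22.0%) rose and 4956 (24.9%) fell, and the median of all changes was −0.09. The shares of each list are to be read against these percentages, which include dim genes. Without dim genes 4232 rose and 3093 fell, so that most calls lost were falls. The median change of genes at or above background in either group was −0.0006. A list of brighter genes is therefore set against a base that holds many falls of dim genes. At least 2-fold, 4.79% rose (956) and 2.35% fell (469). In 6871 of the called genes no effector array overlapped any naive array. With the close pairs averaged, 3490 genes rose and 2813 fell, 955 and 288 of them at least 2-fold. Without naive arrays 34 and 36, 1074 genes rose and 307 fell at least 2-fold. Of the 956 genes that rose at least 2-fold, 953 still rose by any amount without those arrays, and 871 of them at least 2-fold. Of the 469 that fell at least 2-fold, 332 still fell by any amount and 237 at least 2-fold.

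**Figure D3:**
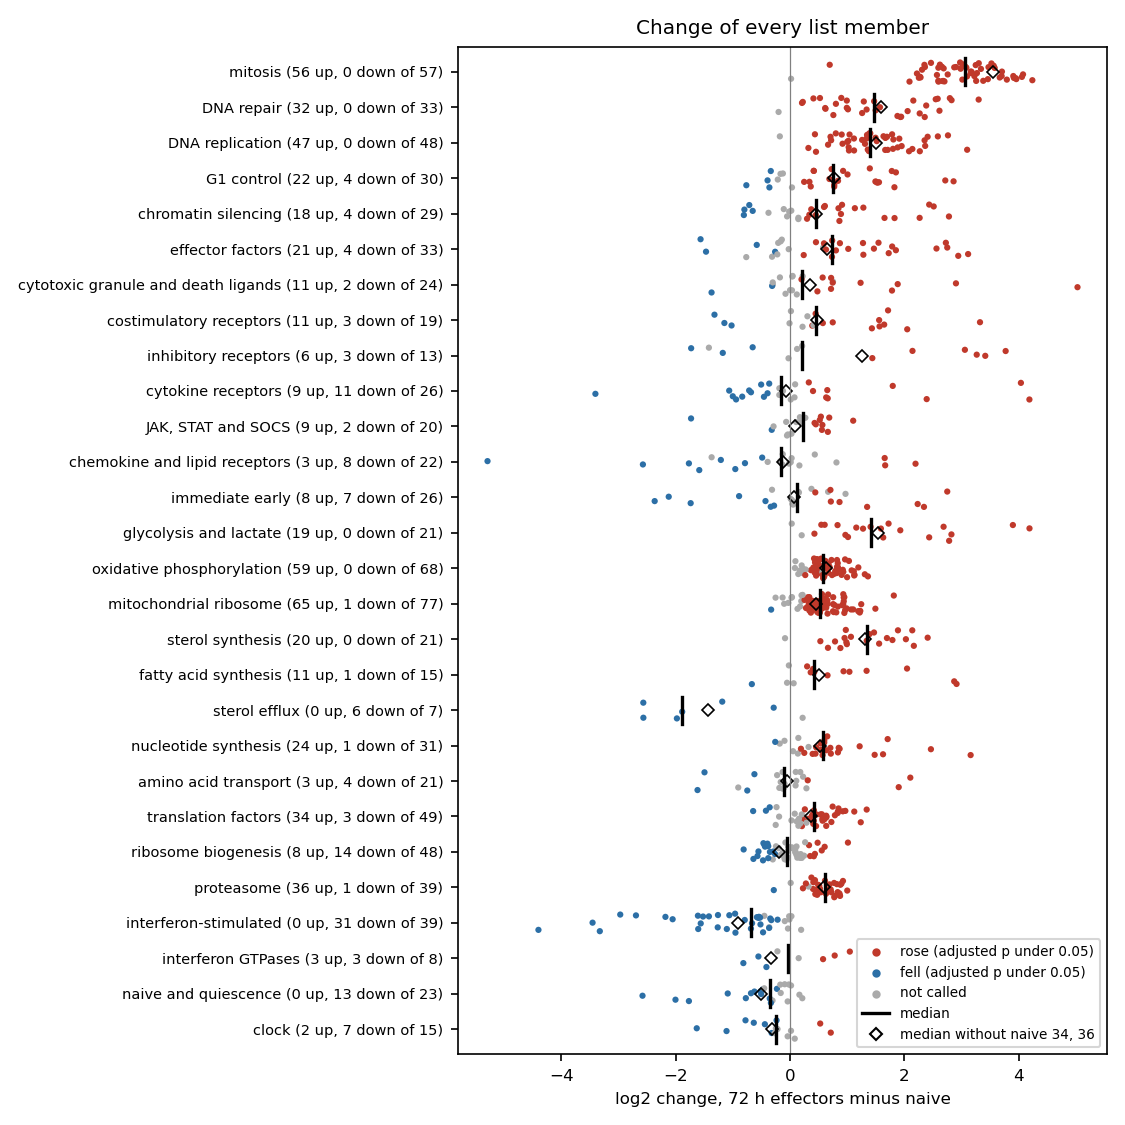
Log2 change of every measured member of 28 gene lists, effector minus naive, coloured by call, with the median as a bar and the median without naive arrays 34 and 36 as a diamond. Mitosis, replication, glycolysis and sterol synthesis genes lie almost wholly to the right, interferon-stimulated and sterol efflux genes to the left, and cytokine and chemokine receptors on both sides.

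Promoters of single list members are shown first, with short sequence motifs that known factors bind. Each was picked by the size of its change among called members whose promoter held the motif, and Gzmb by name. The motif in a shown promoter was therefore set by the choice, and the member is not always the one that changed most. A link between motifs and changes was not tested. Sequences are RefSeq promoters of build GRCm38.p6, 300 bases around the annotated start, 5′ to 3′ on the gene's strand, with the motif on either strand in capitals. The shares below count genes by symbol among 15614 measured genes with a promoter. The interferon response element was searched as GAAANNGAA and was held by 15 of 27 interferon-stimulated members with a promoter (55.6%), against 9.20% of measured genes. The promoter of Ifit3, the member that fell most, lies at chr19:34583279-34583578 on the plus strand and held it 3 times.
Ifit3: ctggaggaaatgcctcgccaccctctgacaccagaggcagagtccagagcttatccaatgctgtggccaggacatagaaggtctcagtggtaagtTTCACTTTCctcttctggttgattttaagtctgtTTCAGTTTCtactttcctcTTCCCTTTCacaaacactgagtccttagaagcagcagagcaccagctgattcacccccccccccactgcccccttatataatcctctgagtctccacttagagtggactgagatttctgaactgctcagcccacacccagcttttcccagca
The E2F site was searched as TTTCCCGC or TTTGGCGC and was held by 13 of 40 replication members (32.5%, against 2.56%). It is shown in Rfc3, a subunit of the clamp loader, at chr5:151651159-151651458 on the minus strand.
Rfc3: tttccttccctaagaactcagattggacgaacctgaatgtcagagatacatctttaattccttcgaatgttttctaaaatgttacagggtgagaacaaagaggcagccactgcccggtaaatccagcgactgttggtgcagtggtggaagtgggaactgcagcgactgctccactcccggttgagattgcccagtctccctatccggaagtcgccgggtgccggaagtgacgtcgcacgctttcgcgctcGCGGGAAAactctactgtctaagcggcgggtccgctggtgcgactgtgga
The cell cycle homology region, searched as TTTGAA, was held by 32 of 47 mitosis members (68.1%, against 17.3%). It is shown in Ncapg, a condensin subunit, at chr5:45669675-45669974 on the plus strand.
Ncapg: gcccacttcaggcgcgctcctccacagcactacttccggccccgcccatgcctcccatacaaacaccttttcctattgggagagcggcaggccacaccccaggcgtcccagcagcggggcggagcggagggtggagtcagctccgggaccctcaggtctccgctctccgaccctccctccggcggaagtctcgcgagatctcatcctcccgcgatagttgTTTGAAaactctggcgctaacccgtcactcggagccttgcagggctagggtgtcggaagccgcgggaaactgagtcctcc
The sterol regulatory element, searched as TCACNCCAC, was held by 1 of 17 sterol synthesis members (5.88%, against 1.40%), which was Hmgcs1 at chr13:119690101-119690400 on the plus strand.
Hmgcs1: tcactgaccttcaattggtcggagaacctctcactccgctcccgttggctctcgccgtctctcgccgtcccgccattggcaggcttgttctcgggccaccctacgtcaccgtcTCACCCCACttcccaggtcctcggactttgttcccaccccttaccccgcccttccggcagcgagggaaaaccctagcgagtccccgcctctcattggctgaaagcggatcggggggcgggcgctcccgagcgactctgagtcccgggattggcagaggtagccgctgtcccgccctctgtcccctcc
A RUNX site, searched as TGTGGT and added after the data were seen, was held by 14 of 22 cytotoxic members (63.6%, against 16.4%). Gzmb, at chr14:56262285-56262584 on the minus strand, held it 2 times.
Gzmb: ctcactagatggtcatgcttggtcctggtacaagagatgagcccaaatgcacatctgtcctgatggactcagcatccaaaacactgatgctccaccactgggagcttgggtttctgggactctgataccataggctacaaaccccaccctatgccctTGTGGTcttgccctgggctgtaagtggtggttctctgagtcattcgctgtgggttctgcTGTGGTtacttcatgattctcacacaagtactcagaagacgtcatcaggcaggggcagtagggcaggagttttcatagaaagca
The E-box CACGTG was held by 11 of 43 ribosome biogenesis members (25.6%, against 9.50%). A match is a run of letters and was not measured as a bound site.

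The killing machinery changed in part. Gzmb, the granule protease granzyme B, read 6.86, 8.75, 8.13 and 8.37 in naive arrays 33 to 36 and 12.73, 13.40, 13.31 and 12.79 in effector arrays 1 to 4. Its change of 5.03 ± 0.29 (adjusted p = 6.97e-09) was the largest rise of all genes. Prf1, the pore former perforin that lets granzymes into the target cell, went the other way. It read 10.10, 9.98, 10.23 and 9.96 in naive and 8.40, 8.88, 8.93 and 8.57 in effector arrays and fell by 1.37 ± 0.13. Among the 24 genes of the cytotoxic list, 11 rose and 2 fell, and the median was 0.21. Gzmc (granzyme C) rose by 2.90 ± 0.27, or by 1.85 counted from background, Gzmk by 1.24 ± 0.26 and the death ligand Fasl by 1.88 ± 0.26. Gzma read 8.18, 10.17, 9.88 and 9.91 in naive and 10.13, 10.41, 10.28 and 10.33 in effector arrays and was not called (0.75 ± 0.33), but rose by 1.26 without naive arrays 34 and 36. Serpinb6b, an intracellular serpin, rose by 1.78 ± 0.20, and Lamp1, a lysosome membrane protein, fell by 0.31 ± 0.11 but was not called without naive arrays 34 and 36 (−0.07). Of 18 NK-type lectin receptor genes 2 rose and 8 fell, but 4 rose and 3 fell without naive arrays 34 and 36, and 8 of the 18 lay under background in both groups. Klrk1, the activating receptor NKG2D, read 7.05, 8.88, 8.03 and 8.34 in naive and 11.15, 11.18, 11.02 and 11.31 in effector arrays and rose by 3.09 ± 0.27. Among 8 NK-cell markers 4 fell and 1 rose, which was Eomes. These counts were the same without naive arrays 34 and 36, but the median change went from −0.97 to −0.27. Ncr1, a receptor of NK cells, read 7.53, 10.52, 9.18 and 10.001 in naive and 6.41, 6.43, 6.29 and 6.09 in effector arrays and fell by 3.01 ± 0.53 (−1.99 from background). Its highest values were those of naive arrays 34 and 36.

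Of 25 cytokine genes, 5 rose and 4 fell, shares at or under those of all genes, and 10 of the 25 lay under background in both groups. Ifng, encoding interferon gamma, read 7.92, 8.38, 8.57 and 8.47 in naive and 8.45, 8.72, 8.88 and 8.26 in effector arrays, and the groups overlapped (0.24 ± 0.25, adjusted p = 0.432). Tnf read 9.56, 9.31, 9.32 and 9.40 in naive and 10.14, 10.60, 10.64 and 10.07 in effector arrays and rose by 0.97 ± 0.20, while Il2 lay under background in all 8 arrays. Among 14 chemokine genes, Xcl1, which attracts cross-presenting dendritic cells, was the 1 that rose (2.73 ± 0.36). Ccl5, a chemokine stored by memory cells, read 11.56, 12.57, 12.60 and 12.34 in naive and 10.91, 10.67, 10.80 and 10.90 in effector arrays and fell by 1.44 ± 0.19.

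**Figure D4:**
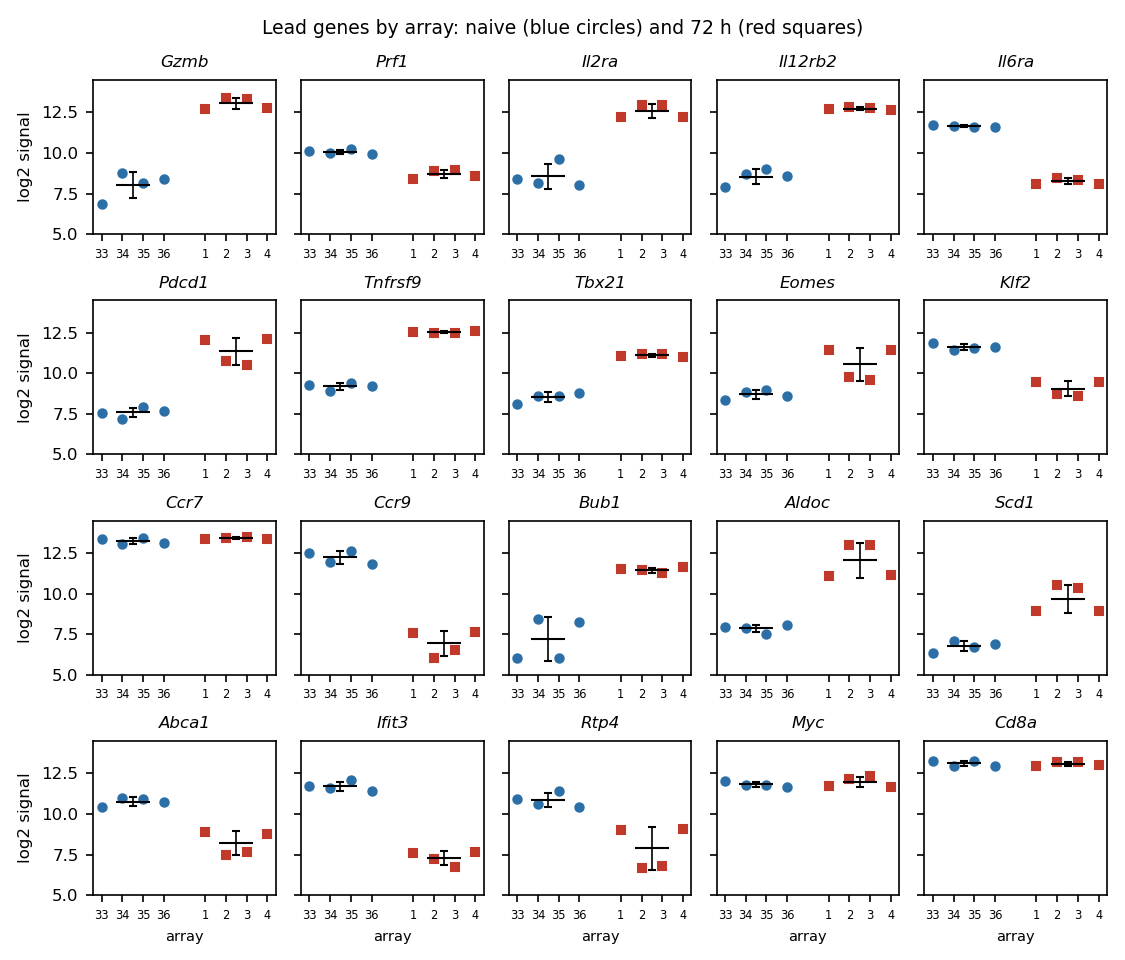
Log2 signal of 20 genes in naive arrays 33 to 36 (blue circles) and effector arrays 1 to 4 (red squares), with the mean and SD of each group in black. Gzmb, Il2ra, Il12rb2, Pdcd1, Tnfrsf9, Tbx21, Eomes, Bub1, Aldoc and Scd1 are higher in every effector array, Prf1, Il6ra, Klf2, Ccr9, Abca1, Ifit3 and Rtp4 are lower, and Ccr7, Myc and Cd8a overlap.

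Receptors for cytokines were exchanged. Il2ra, the chain that makes the interleukin-2 receptor high in affinity, read 8.41, 8.13, 9.65 and 8.04 in naive and 12.25, 12.98, 12.93 and 12.23 in effector arrays. It rose by 4.04 ± 0.29, and its naive level was highest in array 35. Il12rb2, the signalling chain for interleukin-12, read 7.92, 8.72, 8.99 and 8.58 in naive and 12.72, 12.81, 12.80 and 12.65 in effector arrays, a rise of 4.19 ± 0.21. Il2rb, the shared chain for interleukins 2 and 15, rose by 1.80 ± 0.07 and Il10ra, the receptor for interleukin-10, by 2.39 ± 0.32. Il6ra, the interleukin-6 receptor, read 11.72, 11.66, 11.62 and 11.63 in naive and 8.11, 8.45, 8.37 and 8.09 in effector arrays. It fell by 3.40 ± 0.15, with little spread within either group. The other interleukin-6 family chains Il6st (−0.84 ± 0.13) and Il27ra (−1.06 ± 0.11) also fell, as did Il18r1 (−0.94 ± 0.08), Tgfbr2 (−0.68 ± 0.06) and Il7r (−0.50 ± 0.16), the receptor for the survival cytokine of naive cells. Il7r was not called with the close pairs averaged. Of 26 cytokine receptor genes, 9 rose and 11 fell. Downstream, Stat5b rose by 0.54 ± 0.10 and Stat5a was not called (0.17 ± 0.10). The feedback inhibitor Cish rose by 1.11 ± 0.16, while Socs3, an inhibitor of signalling through Il6st, read 11.57, 10.78, 11.01 and 10.92 in naive and 8.77, 9.84, 9.98 and 8.76 in effector arrays and fell by 1.73 ± 0.28.

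Inhibitory and costimulatory receptors rose more often than they fell. Pdcd1, encoding the checkpoint receptor PD-1, read 7.58, 7.21, 7.92 and 7.65 in naive and 12.08, 10.76, 10.53 and 12.09 in effector arrays. It rose by 3.77 ± 0.29, and arrays 1 and 4 lay above arrays 2 and 3. Ctla4, a competitor of Cd28, rose by 3.42 ± 0.23, Tigit by 3.27 ± 0.24, Lag3, a receptor for MHC class II, by 3.06 ± 0.19 and Cd200 by 2.14 ± 0.13. Of 13 inhibitory receptor genes 6 rose and 3 fell, and Btla, among those that fell, changed by −0.65 ± 0.09. Klrg1 (−1.18 ± 0.33, or −0.38 from background) and Cd244a (−1.73 ± 0.37) were the other falls. Without naive arrays 34 and 36, Klrg1 was not called and Cd244a changed by −0.76. Havcr2, encoding TIM-3, read 6.57, 9.30, 7.29 and 9.10 in naive and 7.55, 8.29, 8.46 and 7.85 in effector arrays and was not called, but rose by 1.11 without naive arrays 34 and 36. Of 19 costimulatory genes, 11 rose and 3 fell. Tnfrsf9, the costimulatory receptor 4-1BB, read 9.30, 8.91, 9.41 and 9.22 in naive and 12.56, 12.49, 12.48 and 12.61 in effector arrays, a rise of 3.32 ± 0.11. Icos (1.72 ± 0.16), Cd28 (1.65 ± 0.09), Tnfrsf18 (1.57 ± 0.11) and Tnfrsf4 (1.56 ± 0.12), which encodes OX40, rose as well. Cd69, an early activation marker that retains cells in lymphoid tissue, read 12.25, 11.89, 12.03 and 11.67 in naive and 10.67, 11.20, 11.17 and 10.71 in effector arrays and fell by 1.02 ± 0.18.

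The T-cell receptor complex itself changed less. Of 21 genes of the complex and its proximal signalling, 3 rose and 6 fell, none by 2-fold, with a median of −0.04, shares (14.3% and 28.6%) near those of all genes. Cd3d rose by 0.74 ± 0.13 and Cd5, a negative regulator of the receptor, by 0.49 ± 0.09, while Prkcq, encoding protein kinase C theta, fell by 0.58 ± 0.08. Of 14 ion channel genes 3 rose and 6 fell. The potassium channel gene Kcnk5 rose by 2.60 ± 0.12 and Orai2, a calcium channel subunit, fell by 1.26 ± 0.10.

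Of 26 immediate-early genes, 8 rose (30.8%) and 7 fell (26.9%), against 22.0% and 24.9% of all genes. Fos, a component of the AP-1 factor, read 10.33, 10.42, 9.82 and 10.48 in naive and 7.53, 8.09, 8.44 and 7.53 in effector arrays and fell by 2.37 ± 0.29, beside Jun (−1.74 ± 0.16) and Fosb (−2.12 ± 0.32). The orphan nuclear receptor genes Nr4a2 (2.34 ± 0.34) and Nr4a3 (2.23 ± 0.27), which T-cell receptor signals induce, rose, with Egr2 (1.35 ± 0.16) and Batf (0.71 ± 0.10). Myc, the factor that drives growth after activation, read 12.01, 11.78, 11.79 and 11.67 in naive and 11.74, 12.13, 12.33 and 11.67 in effector arrays, and the groups overlapped (0.16 ± 0.13, adjusted p = 0.323). Dusp1, a phosphatase that switches off MAP kinases, fell by 2.55 ± 0.24.

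Among 33 factors of effector differentiation, 21 rose and 4 fell, with a median of 0.74. Tbx21, encoding T-bet, read 8.10, 8.63, 8.63 and 8.81 in naive and 11.04, 11.19, 11.19 and 10.999 in effector arrays and rose by 2.56 ± 0.12. Its relative Eomes read 8.34, 8.84, 8.98 and 8.63 in naive and 11.41, 9.77, 9.57 and 11.46 in effector arrays. The rise of 1.85 ± 0.36 was uneven, as effector arrays 1 and 4 lay more than 1 above arrays 2 and 3. Irf4, which scales with receptor signal strength, rose by 2.75 ± 0.21, the Ikaros family gene Ikzf2 by 3.12 ± 0.28, Hif1a, a factor of the response to low oxygen, by 1.47 ± 0.10, Bhlhe40 by 1.73 ± 0.36 and Id3, an inhibitor of E proteins, by 1.28 ± 0.14. Prdm1, encoding Blimp-1, read 7.52, 8.10, 7.43 and 8.10 in naive and 7.58, 9.26, 8.99 and 7.65 in effector arrays and was not called, with arrays 2 and 3 above arrays 1 and 4. Runx1 fell by 1.56 ± 0.08 and Runx3, the CD8 lineage factor, rose by 0.63 ± 0.12 (0.37 without naive arrays 34 and 36). Maf changed by −1.47 ± 0.31, and by −0.70 without naive arrays 34 and 36.

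Genes of the naive and quiescent state fell or were not called. Of 23, 13 fell and 0 rose, with a median of −0.35 (−0.50 and 14 fallen without naive arrays 34 and 36). Klf2, which keeps T cells quiescent and recirculating, read 11.88, 11.46, 11.56 and 11.64 in naive and 9.45, 8.75, 8.58 and 9.44 in effector arrays and fell by 2.58 ± 0.18. Falls were also called for Klf3 (−2.003 ± 0.10), the lymph node exit receptor S1pr1 (−1.77 ± 0.10), Lef1, which acts with Tcf7 in naive cells (−0.77 ± 0.10), and Foxo1, which drives Klf2 and Il7r (−0.35 ± 0.11, and −0.57 without naive arrays 34 and 36). Foxo1 was not called when only the 8 arrays entered the fit. Ccr7, the receptor that brings cells into lymph nodes, read 13.39, 13.06, 13.46 and 13.12 in naive and 13.38, 13.45, 13.49 and 13.37 in effector arrays and did not separate the groups. Bach2 (−0.09 ± 0.12) and Satb1 (−0.17 ± 0.08) were not called.

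Homing receptors changed one by one. Ccr9, which guides cells to the small intestine and thymus, read 12.52, 11.93, 12.64 and 11.83 in naive and 7.57, 6.03, 6.54 and 7.61 in effector arrays. It changed by −5.29 ± 0.33, or −4.91 counted from background, so that effector arrays lay at or near the background level. Cxcr3, the receptor that leads effector cells to sites of inflammation, rose by 2.20 ± 0.16, with Ccr4 (1.67 ± 0.20) and Ccr8 (1.66 ± 0.18, or 0.73 from background). Of 22 chemokine and lipid receptor genes these 3 rose and 8 fell. Ccr3, a receptor of eosinophils, was among the falls (−2.57 ± 0.74, or −2.02 from background) but was not called without naive arrays 34 and 36 (−0.72). Of 24 adhesion genes 10 rose and 5 fell. Alcam, a ligand of Cd6, rose by 2.88 ± 0.21 and the integrin chain Itgb3 by 1.62 ± 0.12, while Itga4, an integrin alpha chain, read 11.70, 12.02, 11.87 and 12.05 in naive and 10.37, 10.58, 10.53 and 10.41 in effector arrays and fell by 1.43 ± 0.15. St6gal1, which caps glycans with sialic acid, fell by 1.42 ± 0.20 and Chst2, a sulfotransferase of selectin ligands, rose by 1.06 ± 0.16.

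Genes of mitosis rose almost without exception. Of 57 mitosis genes 56 rose, with a median of 3.07, and the count was 56 under each of 23 alternatives. Bub1, a spindle checkpoint kinase, read 6.06, 8.46, 6.04 and 8.26 in naive and 11.50, 11.43, 11.24 and 11.62 in effector arrays and rose by 4.24 ± 0.45 (4.13 from background). Naive arrays 34 and 36 lay above 33 and 35 by more than 2, and without them the rise was 5.39. As arrays 33 and 35 lay under 7.32, the excess over 4.13 was measured under background. Top2a, which untangles DNA, was likewise higher in naive arrays 34 and 36. It read 6.59, 9.59, 8.04 and 9.31 in naive and 12.34, 12.30, 12.21 and 12.48 in effector arrays (3.95 ± 0.45, and 5.02 without those arrays). The 57 genes averaged 7.28, 8.67, 7.54 and 8.60 in naive arrays 33 to 36 and 10.92 to 11.10 in the effector arrays. The myeloid and erythroid markers were high in the same naive arrays, and their part in these levels was not tested. The median rise without the 2 arrays was 3.56. Kif11, a spindle motor, rose by 3.96 ± 0.54, Cenpe of the kinetochore by 3.71 ± 0.29, Ncapg by 4.08 ± 0.31 and Mastl, a kinase of mitotic entry, by 4.06 ± 0.27 (2.99 from background). Pttg1, encoding securin, was the member not called, at 10.12, 10.10, 10.02 and 9.99 in naive and 9.998, 10.19, 10.03 and 10.09 in effector arrays.

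Replication and repair rose less steeply but as widely. Of 48 replication genes 47 rose, with a median of 1.40, and Orc4 of the origin recognition complex was not called (−0.18 ± 0.09). Ticrr, a factor of the start of replication, read 6.99, 7.95, 7.06 and 8.29 in naive and 10.77, 10.74, 10.45 and 10.74 in effector arrays and rose by 3.10 ± 0.25. Pole, the leading-strand polymerase, rose by 2.76 ± 0.16, the primase Prim1 by 2.59 ± 0.12, the helicase subunit Mcm5 by 1.67 ± 0.16 and Rfc3 by 2.27 ± 0.11. Of 33 DNA repair genes 32 rose, with a median of 1.47, Brca1 of recombination repair by 2.55 ± 0.18, and Atm, the kinase that signals double-strand breaks, was not called (−0.20 ± 0.14). Of 30 genes of G1 control 22 rose and 4 fell. Ccne2, a cyclin of S-phase entry, rose by 2.86 ± 0.28 (2.35 from background) and the factor gene E2f8 by 2.72 ± 0.54, or by 4.09 without naive arrays 34 and 36. The D-type cyclins that act earlier did otherwise: Ccnd1 (−0.76 ± 0.16) and Ccnd2 (−0.34 ± 0.10) fell, and Ccnd3 was not called (−0.21 ± 0.12). Without naive arrays 34 and 36, Ccnd1 changed by −0.45 and Ccnd2 by −0.51, and Ccnd2 was not called when only the 8 arrays entered the fit. The cell cycle inhibitor Cdkn2c rose by 1.83 ± 0.17. Of 29 chromatin silencing genes 18 rose and 4 fell, among them Ezh2, the methyltransferase of Polycomb (2.27 ± 0.14), Uhrf1 (2.44 ± 0.18) and Dnmt1 (1.14 ± 0.09), which copy DNA methylation.

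Genes of glucose uptake and glycolysis rose. Of 21 genes in this list, which also holds Bnip3 and Egln3, 19 rose and 0 fell, with a median of 1.41. Aldoc, an aldolase, read 7.94, 7.91, 7.53 and 8.07 in naive and 11.09, 12.99, 12.996 and 11.14 in effector arrays and rose by 4.19 ± 0.36, the close pairs of effector arrays lying nearly 2 apart. Bnip3, a mitophagy receptor under Hif1a, read 7.82, 8.17, 7.97 and 7.78 in naive and 11.87, 11.83, 11.73 and 11.91 in effector arrays, with a rise of 3.90 ± 0.12 and little spread. Tpi1 (2.69 ± 0.17), Pgk1 (2.44 ± 0.10), Pgam1 (1.93 ± 0.17) and Ldha (0.83 ± 0.06) of the lower pathway rose, as did Slc16a3, the exporter of lactate (2.78 ± 0.28), and Hk2 (1.63 ± 0.22), the inducible hexokinase. Hk1, the housekeeping hexokinase (0.03 ± 0.06), and Pdk1, which holds pyruvate out of mitochondria (0.21 ± 0.13), were the 2 not called. The glucose transporter Slc2a1 rose by 0.97 ± 0.17.

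Mitochondrial genes rose by small and even steps. Of 68 genes of oxidative phosphorylation 59 rose and 0 fell, with a median of 0.58 and 8 at least 2-fold. Cox7a2 of cytochrome oxidase read 10.20, 10.63, 10.49 and 10.18 in naive and 11.75, 11.71, 11.69 and 11.79 in effector arrays, a rise of 1.36 ± 0.09. Of 77 genes of the mitochondrial ribosome 65 rose and 1 fell, Mrpl45 by 1.82 ± 0.13, and the count of rises was 48 after quantile normalization. Of 28 genes of the citric acid cycle and glutamine use 21 rose and 0 fell, with a median of 0.56, and of 23 genes of fatty acid oxidation 14 rose and 4 fell. Cpt1a, which admits fatty acids to mitochondria, was not called (0.21 ± 0.12).

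Lipid genes moved in both directions, with synthesis up and efflux down. Of 21 sterol synthesis genes 20 rose and 0 fell, with a median of 1.34. Cyp51, a demethylase of the pathway, read 7.82, 8.26, 8.02 and 7.80 in naive and 10.07, 10.69, 10.47 and 10.31 in effector arrays and rose by 2.41 ± 0.14. Idi1 rose by 2.17 ± 0.13, Sqle by 2.03 ± 0.14, Hmgcs1, whose promoter is shown above, by 1.89 ± 0.17 and Fdft1 by 1.70 ± 0.22. Ggps1, which leads to protein prenylation, was not called (−0.09 ± 0.11). Of 15 fatty acid synthesis genes 11 rose and 1 fell. The desaturase gene Scd1 read 6.34, 7.08, 6.73 and 6.90 in naive and 8.95, 10.54, 10.32 and 8.90 in effector arrays and rose by 2.91 ± 0.36, or by 2.36 from background, and Fads2 rose by 2.87 ± 0.23. Effector arrays 2 and 3 lay above arrays 1 and 4 for Scd1, and the sterol synthesis list averaged 10.92 and 10.79 in arrays 2 and 3 against 10.14 and 10.23 in arrays 1 and 4. Genes of sterol efflux, which the oxysterol receptor LXR controls, fell. Abca1, a cholesterol exporter, read 10.42, 10.99, 10.93 and 10.72 in naive and 8.91, 7.49, 7.63 and 8.77 in effector arrays and fell by 2.57 ± 0.26. Abcg1, its partner, read 11.70, 11.87, 12.02 and 11.97 in naive and 10.07, 9.97, 9.82 and 10.15 in effector arrays and fell by 1.89 ± 0.09, and Mylip, which degrades the LDL receptor, fell by 1.98 ± 0.11. Of 7 such genes 6 fell. Apoe, an apolipoprotein also made by macrophages, changed by −2.56 ± 0.44, and by −1.44 without naive arrays 34 and 36. Nr1h3, encoding LXR alpha, fell by 1.18 ± 0.38 but was not called without them (−0.23).

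**Figure D5:**
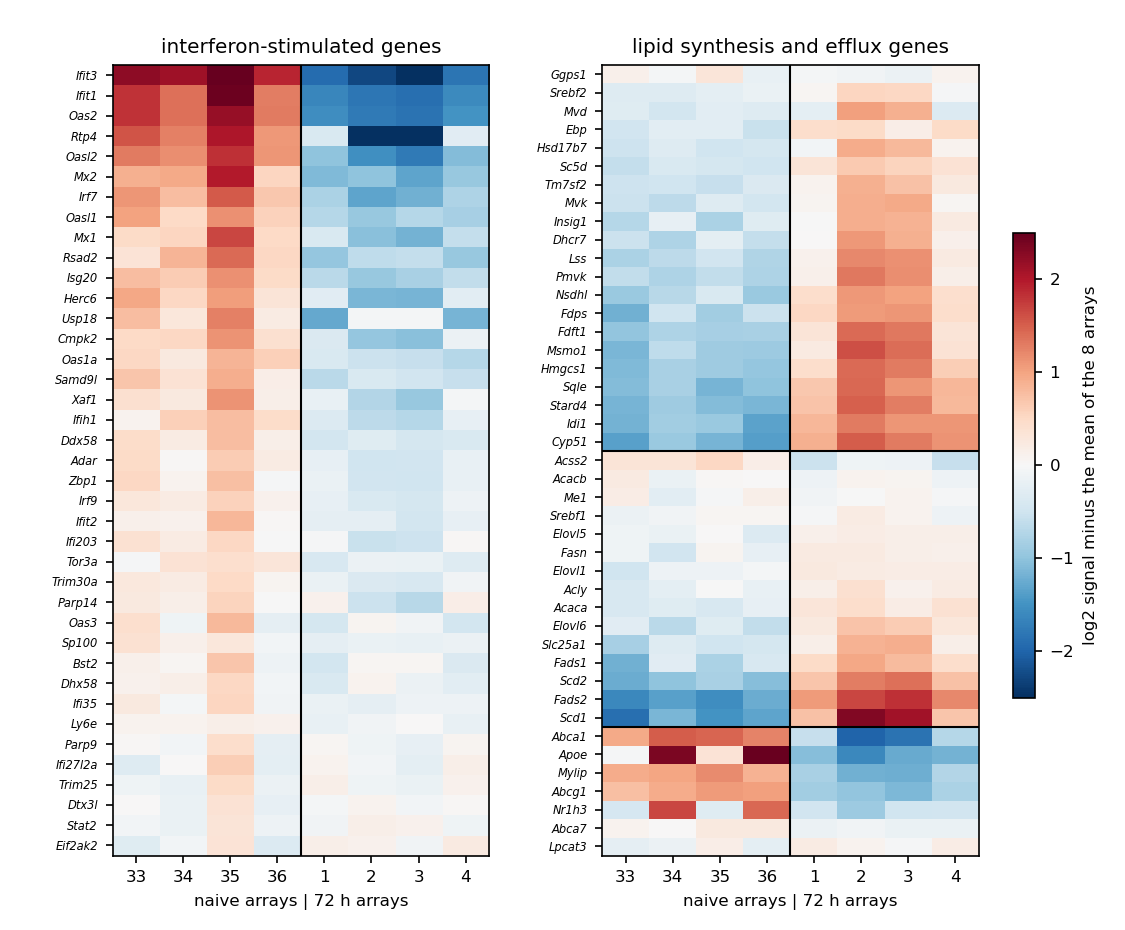
Log2 signal of each gene minus its mean over the 8 arrays, for interferon-stimulated genes (left) and for sterol synthesis, fatty acid synthesis and sterol efflux genes from top to bottom (right). Interferon-stimulated and efflux genes are higher in naive arrays 33 to 36 and synthesis genes in effector arrays 1 to 4, with array 35 the highest for interferon genes and arrays 2 and 3 the highest for synthesis.

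Building blocks and protein synthesis rose in part. Of 31 nucleotide synthesis genes 24 rose and 1 fell, with Rrm2 of ribonucleotide reductase up by 3.16 ± 0.46 (4.30 without naive arrays 34 and 36) and Tyms, thymidylate synthase, by 2.14 ± 0.26. Psat1 of serine synthesis read 9.57, 9.64, 9.51 and 9.51 in naive and 11.52, 11.53, 11.39 and 11.56 in effector arrays and rose by 1.94 ± 0.08, and Phgdh, the first enzyme of that pathway, by 1.07 ± 0.11. Amino acid transporters as a group did not follow, with 3 of 21 rising and 4 falling. The leucine carrier Slc43a1 (2.11 ± 0.47, not called without effector arrays 1 and 4) and the cystine carrier Slc7a11 (1.90 ± 0.26) rose, and Slc7a5, another leucine carrier, read 11.28, 11.13, 11.56 and 11.35 in naive and 11.26, 11.12, 11.22 and 11.22 in effector arrays and was not called. Asns, asparagine synthetase, rose by 2.11 ± 0.43, or by 3.25 without naive arrays 34 and 36. Of 49 translation factor genes 34 rose and 3 fell, of 39 proteasome genes 36 rose and 1 fell, and of 39 nuclear transport genes 29 rose and 1 fell. Of 25 chaperone genes 18 rose, the chaperonin subunit Tcp1 by 1.23 ± 0.08. Other lists of protein synthesis moved less. Of 34 aminoacyl-tRNA synthetase genes 13 rose (38.2%) and 1 fell, with a median of 0.10, or 0.007 without naive arrays 34 and 36. Of 52 ribosomal protein genes 12 rose (23.1%) and 6 fell (11.5%), with a median of 0.08. Ribosome biogenesis did not rise as a list: of 48 genes 8 rose (16.7%) and 14 fell (29.2%), with a median of −0.04. Without naive arrays 34 and 36, 5 rose and 18 fell, with a median of −0.19. The ribosomal RNA processing factor Utp20 read 10.04, 9.81, 10.07 and 9.79 in naive and 9.54, 8.88, 8.47 and 9.59 in effector arrays and fell by 0.81 ± 0.19, Polr1b of RNA polymerase I fell by 0.64 ± 0.11, and the nucleolar chaperone Npm1 rose by 1.01 ± 0.14.

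Interferon-stimulated genes were lower in the effector arrays. Of 39 genes, 31 fell and 0 rose, with a median of −0.68 (32 fallen and −0.90 without naive arrays 34 and 36, 26 fallen with the close pairs averaged). Ifit3, which binds viral RNA complexes, read 11.75, 11.62, 12.06 and 11.41 in naive and 7.59, 7.24, 6.73 and 7.68 in effector arrays and fell by 4.40 ± 0.21 (adjusted p = 1.45e-09). Ifit1, a sensor of foreign RNA caps, read 11.39, 10.96, 12.04 and 10.86 in naive and 7.96, 7.79, 7.70 and 7.99 in effector arrays and fell by 3.45 ± 0.22. Falls were also called for Oas2, which makes the second messenger that activates RNase L (−3.33 ± 0.20), and for Irf7, the factor that amplifies type I interferon (−2.05 ± 0.19). Rtp4 fell by 2.97 ± 0.47 but unevenly, at 8.998, 6.66, 6.79 and 9.09 in effector arrays 1 to 4 against 10.95, 10.63, 11.39 and 10.45 in naive arrays. In the naive group array 35 was the highest for all of Ifit3, Ifit1, Oas2, Irf7 and Rtp4, and its list mean was 11.21 against 10.52 to 10.76 in the other naive arrays. Stat2 (0.03 ± 0.10) and Eif2ak2, the kinase PKR (0.20 ± 0.13), were among the 8 not called. The receptor genes Ifnar1 (0.65 ± 0.08) and Ifnar2 (0.40 ± 0.11) rose, while Irf9 of the signalling complex fell by 0.58 ± 0.10. The change of Ifnar2 was 0.63 without naive arrays 34 and 36 and 0.17, not called, without naive arrays 33 and 35, and it was also not called without effector arrays 2 and 3 (0.33). The interferon-inducible GTPases were split, with 3 of 8 rising and 3 falling. Slfn5, of the Schlafen family, which interferons also induce, read 10.90, 10.67, 11.60 and 10.61 in naive and 7.33, 7.46, 7.22 and 7.67 in effector arrays and fell by 3.52 ± 0.19, and Slfn8 fell by 1.52 ± 0.16.

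Most called survival genes rose and most called clock genes fell. Of 24 apoptosis genes 11 rose (45.8%) and 3 fell (12.5%), against 22.0% and 24.9% of all genes. Among the rises were Bcl2l11, encoding the killer protein BIM (1.37 ± 0.15), the protective Bcl2l1 (0.70 ± 0.24) and Apaf1 of the apoptosome (1.08 ± 0.12). Bcl2 itself read 12.17, 12.22, 12.47 and 12.27 in naive and 11.67, 12.29, 12.33 and 11.71 in effector arrays and was not called. The protective Bcl2l1 was not called with the close pairs averaged. Of 15 clock genes 7 fell (46.7%) and 2 rose (13.3%). Nr1d2, which encodes the repressor REV-ERB beta, read 9.73, 9.66, 9.57 and 9.63 in naive and 7.74, 8.25, 8.07 and 7.998 in effector arrays and fell by 1.63 ± 0.11. Lgals1, encoding galectin-1, rose by 1.30 ± 0.13 and Capg, an actin-capping protein, by 2.08 ± 0.25.

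Beyond the lists, the largest rises included Cables1, which binds cyclin-dependent kinases. It read 6.66, 6.94, 6.73 and 7.09 in naive and 11.79, 10.62, 10.57 and 11.68 in effector arrays, a rise of 4.31 ± 0.23 (3.84 from background). Nrn1, encoding neuritin, rose by 3.94 ± 0.23 (3.32 from background) and Rasgef1a, an exchange factor for Ras proteins, by 3.72 ± 0.24. Effector arrays 1 and 4 lay above arrays 2 and 3 in each. The replication-dependent histone gene H2ac4 rose by 4.18 ± 0.62, and by 5.69 without naive arrays 34 and 36. Those arrays read 8.58 and 8.76, against 4.81 and 6.49 in arrays 33 and 35. As arrays 33 and 35 lay under background, the excess of 5.69 over 4.18 was measured under background.

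Several of the largest falls were genes known from other cells, whose part in the results was not tested. Bpifa2, a secreted protein of salivary glands, had the largest fall of all genes. It read 12.90, 12.87, 11.57 and 13.60 in naive and 6.33, 6.52, 6.02 and 6.65 in effector arrays, all under background in the effectors, with a change of −6.36 ± 0.82, or −5.42 counted from background. Fscn1, a gene of mature dendritic cells, read 10.64, 10.43, 12.53 and 10.58 in naive and 8.41, 8.04, 8.30 and 8.38 in effector arrays, highest in naive array 35, and fell by 2.76 ± 0.35. Apol7c, of the apolipoprotein L family, likewise read 10.70, 10.37, 12.32 and 10.29 in naive and 7.83, 7.23, 6.20 and 8.07 in effector arrays and fell by 3.59 ± 0.42. Ccl22, a chemokine of the same cells, read 8.79, 8.92, 11.11 and 8.57 in the naive arrays and fell by 1.86 ± 0.43. Of 15 dendritic-cell markers 12 fell and 0 rose, and 10 fell without naive arrays 34 and 36. Of 23 myeloid markers 12 fell and 0 rose, but without naive arrays 34 and 36 1 fell and 6 rose. Mrc1, the macrophage mannose receptor, read 6.64, 11.74, 6.67 and 11.38 in naive and 6.33, 6.01, 6.26 and 6.29 in effector arrays and fell by 2.88 ± 0.93, but was not called without those arrays (−0.43) nor with the close pairs averaged. Camp, a granule peptide of neutrophils, fell by 2.82 ± 0.99 and was likewise not called without them (−0.25). Hmox1, heme oxygenase, read 7.83, 13.24, 8.35 and 13.16 in naive and 10.74, 10.87, 10.85 and 10.70 in effector arrays and was not called (0.15 ± 0.95), but rose by 2.71 without naive arrays 34 and 36. Of 11 stromal markers 7 fell. Igfbp4, a binding protein for insulin-like growth factors (−3.07 ± 0.24), and Dtx1, a target of Notch (−2.81 ± 0.15), which are in none of these marker lists, fell about as far with no overlap between the groups.

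The close pairs of effector arrays differed at genes of several of these programmes. At 103 genes arrays 1 and 4 averaged more than 1 above arrays 2 and 3, and at 97 genes more than 1 below. The genes named here were chosen after their values were seen. Higher in arrays 1 and 4 were Eomes, Pdcd1, Ikzf2, Xcl1 and Rtp4, whose means differed by 1.77, 1.44, 1.30, 1.41 and 2.32. Lower in them were Aldoc, Egln3, a prolyl hydroxylase induced by low oxygen, Slc2a3, a glucose transporter, Scd1 and Prdm1, by −1.88, −1.28, −1.26, −1.50 and −1.51. Each of Eomes, Pdcd1, Ikzf2, Xcl1, Aldoc, Egln3 and Scd1 was still higher in both pairs than in all naive arrays, and Rtp4 lower. The pairs also differed in Xist and Y-linked genes as given above, and in cell type markers. Myeloid markers averaged 8.52 and 8.48 in arrays 1 and 4 against 7.83 and 7.86 in arrays 2 and 3. Neutrophil markers averaged 8.16 and 8.08 against 7.43 and 7.44, and platelet markers 8.78 and 8.73 against 8.09 and 8.04. T-cell markers (12.31 and 12.30 against 12.57 and 12.59) and CD4 and regulatory T-cell markers were lower in arrays 1 and 4. The part of sex or of other cells in the other differences was not tested.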

How the data were processed

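RNA of purified CD8 T lymphocytes was labelled with biotin and hybridised to Affymetrix mouse gene arrays by the manufacturer's standard protocol, per the labels' protocols. The authors deposited 1 log2 signal per probe set and array, made with Affymetrix Expression Console per the submitters' processing notes, and its normalization is not given in the sources used here. No scanner files were used, so background correction could not be varied. Of 35557 probe sets, 21789 carried 1 gene symbol, 1621 several and 12147 none in the platform annotation. The brightest probe set stood for each of 19938 genes. Levels are not compared between genes, since probe sets differ in response.

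The fit used limma 3.58.1 in R 4.3.3, with 16 arrays in 5 groups sharing 1 estimate of the spread, and Benjamini-Hochberg adjustment at 0.05. It was tested on simulated data with independent noise in each array. Those data held no close pairs, so the test cannot tell how the pairs affect the calls. The number of arrays limits the precision. Genes looked at first were the 25 largest rises and falls with no overlap and up to 8 called members of each of 65 lists. Members not called or called against most of their list, all marker genes and a fixed set of T-cell genes were added. The 195 genes counted as named below are those chosen for the text, not all genes of this rule. Lists and their members were chosen with earlier results of these data known. Alternatives changed the normalization, the fit, the gene filter, the covariates and the arrays used. The deposited log2 values were left unchanged elsewhere.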

Additional observations from a re-analysis of the deposited data

Results flagged for a closer look

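In 19 of 390 sets of 4 arrays, 1 set per group and gene chosen for the text, the log2 signal of 1 array lay far from those of the other arrays of its group. Chance alone gives about 1 in 20 such sets where the 4 arrays are independent. The close pairs of arrays depart from this, so the share seen here cannot be judged against that rate. Naive array 35 stood apart for Ccl22 (11.11, nearest other 8.92), Cpt1a (11.41, nearest other 10.93), Ctla4 (8.72, nearest other 9.35), Eif2s3y (7.87, nearest other 5.08), Fscn1 (12.53, nearest other 10.64), Ifnar1 (11.24, nearest other 10.95), Ikzf2 (9.10, nearest other 8.32) and Mrpl45 (8.49, nearest other 8.11). Naive array 33 stood apart for Bcl2l1 (8.10, nearest other 8.68), Gzma (8.18, nearest other 9.88) and Lgals1 (12.02, nearest other 12.63). Effector array 3 stood apart for Ccr4 (9.77, nearest other 9.995), Il2 (5.94, nearest other 6.20) and Ticrr (10.45, nearest other 10.74). Effector array 2 stood apart for H2ac4 (11.76, nearest other 11.23) and Nr1h3 (7.33, nearest other 7.74). Naive array 36 stood apart for Btla (9.79, nearest other 10.09). Effector array 1 stood apart for Cpt1a (11.30, nearest other 11.22). Effector array 4 stood apart for Stat5a (10.50, nearest other 10.57). Naive array 35 was thus the array that stood apart most often. It was high for the dendritic genes Ccl22 and Fscn1 and for Eif2s3y, and the causes were not tested.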

How the results depend on the processing

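Each result was recomputed under 23 alternatives. The counts of genes that rose (4378) and that rose at least 2-fold (956) stayed within 1.5 times of these values under all of them. Leaving out 1 array at a time gave 4009 to 4678 and 887 to 1043 for those counts, 3698 to 5281 for genes that fell (4956) and 338 to 618 for those that fell at least 2-fold (469). The count of falls was 3083 with only the 8 arrays in the fit, 3093 without dim genes, 3024 without effector arrays 1 and 4 and 2813 with the close pairs averaged. At least 2-fold, leaving naive arrays 34 and 36 out gave 307 falls, leaving 33 and 35 out gave 774, averaging the close pairs gave 288, and a covariate of the myeloid markers gave 301. The cause of these changes was not tested beyond the array levels given above.

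Havcr2 turned from −0.03 to 0.89 with the covariate and to 1.11 without naive arrays 34 and 36, S100a8 from −2.16 to 0.69 and 1.11, and Hmox1 from 0.15 to −2.41 without naive arrays 33 and 35. Of 166 called genes among the 195 chosen for the text, 151 kept direction and call under every alternative. The others, which lost the call under at least 1, were Lamp1, Camp, Bcl2l1, Nr1h3, Mrc1, Dntt, Il7r, Slc2a3, Ccnd2, Ccr3, Foxo1, Klrg1, Ifnar2, Cd6 and Slc43a1. No paired analysis was possible because the groups share no replicate numbers. The settings without effector arrays 1 and 4, without effector arrays 2 and 3 and with the close pairs averaged were chosen after the data were seen. Signals near background limit what falls can be measured.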

Other observations

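Values of several smaller groups that no comparison above describes are given here. Of 8 genes of the Gimap family, GTPases of lymphocyte survival, 4 rose and 0 fell. Gimap7 read 9.85, 9.30, 10.12 and 8.94 in naive and 10.58, 11.60, 11.62 and 10.74 in effector arrays and rose by 1.58 ± 0.25, with effector arrays 2 and 3 the highest. Of 22 genes of S100 proteins, annexins and their relatives 11 rose and 2 fell, and Anxa2, a membrane-binding annexin, rose by 1.83 ± 0.42. Of 341 zinc finger genes measured as 1 list, 95 rose and 52 fell, or 27.9% and 15.2% of them. Without naive arrays 34 and 36 these counts were 59 and 56.

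Dntt, encoding the terminal transferase of receptor rearrangement, read 9.96, 9.28, 9.74 and 9.06 in naive and 6.55, 9.24, 9.15 and 6.79 in effector arrays, where effector arrays 2 and 3 lay within or near the naive range and arrays 1 and 4 under background. Ifi208, of the interferon-inducible p200 family, read 11.76, 11.38, 11.99 and 10.73 in naive and 10.23, 8.35, 8.16 and 10.25 in effector arrays, split between the same pairs in the other direction. Mucl2, a mucin-like gene, read 13.78, 5.91, 8.42 and 5.98 in naive and 5.81, 6.05, 5.80 and 5.92 in effector arrays and was high in naive array 33. Socs2, an inhibitor of Stat5 signalling, read 8.33, 8.88, 10.40 and 8.55 in naive and 8.99, 9.64, 9.47 and 9.13 in effector arrays, with naive array 35 the highest of all 8.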
